A study of Mus musculus with 31 samples.

Results

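Interferon-stimulated effector genes encode the proteins with which a cell answers interferon. The 40 genes described here were chosen by name from that class, and all 40 were found among the 46072 genes of the deposited tables. They were the ISG15 system (Isg15, Usp18, Herc6, Trim25), the IFIT family (Ifit1, Ifit2, Ifit3, Ifit3b), the OAS family (Oas1a, Oas1g, Oas2, Oas3, Oasl1, Oasl2), and the Mx GTPases with the viperin locus (Mx1, Mx2, Rsad2, Cmpk2). The others were the PARP genes and their partner Dtx3l (Parp9, Parp10, Parp12, Parp14), the membrane and secreted proteins (Bst2, Ifitm3, Rtp4, Lgals3bp), the TRIM and nuclear body genes (Trim21, Trim30a, Sp100, Phf11b, Xaf1), a group of Slfn2, Slfn5, Samd9l and Epsti1, and Ifi27, Ifi27l2a, Ifi35 and Ifi44.

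Type I interferons bind one receptor, which activates JAK kinases and, through them, transcription factors of the STAT family. With IRF9 these form the complex ISGF3, which binds the interferon-stimulated response element (ISRE) in front of its target genes. The products block viral RNA, viral entry and viral release, mark proteins with the ubiquitin-like protein ISG15, and in part damp the signal again. In tumors, DNA from damaged cells can start the same pathway through cytosolic sensors.

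Messenger RNA was sequenced from RM-9 tumors of 15 mice and MC-38 tumors of 16 mice, 1 library per mouse. RM-9 is a mouse prostate cancer cell line and MC-38 a mouse colon cancer cell line, and both were grown under the skin of the right hind leg of male C57BL/6J mice, labelled WT, that were bought at 6 to 7 weeks of age. Tumors received radiotherapy (RT) as 1 dose of 15 Gy and were taken 3 h, 12 h or 24 h later, and untreated mice served as controls. There were 4 mice in every group but one, RM-9 RT 24 h with 3. The controls carried the 3 h time in their labels, and the same 4 control mice stood against all 3 RT groups of their model, so the comparisons within a model share them. RT and time in the mouse after 3 h cannot be told apart. A tumor sample holds cancer cells, immune cells and stroma, and fewer cells of a type and less RNA per cell cannot be told apart in such data.

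Levels are in TPM (transcripts scaled to one total per library, which accounts for gene length), as mean ± SD over mice. Differences are on the log2(TPM + 0.5) scale from limma, with the standard error (SE) and a p adjusted over all genes tested, and a gene is said to have risen or fallen only at an adjusted p under 0.05. The adjusted p-values below all come from limma. An exact permutation test over mice, two-sided, is given for single genes, and with these group sizes it can go no lower than 0.0286. The mean of log2(TPM + 0.5) over the 40 genes is called the mean level.

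Depth was 21.4 to 29.4 M reads per library. Mitochondrial transcripts held 47.3 to 57.2% of TPM in RM-9 and 22.5 to 40.6% in MC-38 libraries, so the TPM of other genes depended on that share. RM-9 control tumors held the epithelial keratin Krt8 at 910.1 TPM, whereas the summed epithelial markers reached at most 1.56 TPM in any MC-38 tumor. Pbsn and Tmprss2 of the prostate list were at 0 in every library, as was Cdx1 of the colon list, and Cdx2 was at 0 in MC-38 tumors. The 5 colon markers summed to 9.52 to 14.1 TPM in RM-9 control mice and to 0.711 to 1.75 TPM in MC-38 control mice. The 5 prostate markers summed to 1.82 to 2.64 TPM and to 2.14 to 3.75 TPM. The summed TPM of 7 skeletal muscle markers ranged from 3.05 to 10329.8 between mice. It was highest in MC-38 control mouse 1, and in RM-9 tumors it was lowest in RT 12 h mouse 1.

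The stretches in front of 7 of the genes are shown because they hold, or in the case of Ifitm3 lack, the ISRE core that ISGF3 and the IRF proteins recognise. Each is the 160 bases immediately before the RefSeq start of the gene, 5′ to 3′ on the gene's strand, in build GRCm38.p6. Capitals mark every match to the core, which is GAAA, any 2 bases and GAAA again. Where it lies on the other strand it reads TTTC, 2 bases and TTTC, and overlapping matches run together.
Isg15: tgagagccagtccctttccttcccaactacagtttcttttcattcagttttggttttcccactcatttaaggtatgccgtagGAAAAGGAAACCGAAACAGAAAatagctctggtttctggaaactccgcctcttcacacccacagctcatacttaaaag
Ifit1: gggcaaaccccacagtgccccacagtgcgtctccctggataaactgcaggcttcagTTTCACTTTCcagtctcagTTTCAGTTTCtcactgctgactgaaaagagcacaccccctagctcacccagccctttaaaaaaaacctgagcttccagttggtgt
Ifit3: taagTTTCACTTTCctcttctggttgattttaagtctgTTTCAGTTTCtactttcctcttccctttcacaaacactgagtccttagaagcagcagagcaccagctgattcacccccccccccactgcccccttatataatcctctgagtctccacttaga
Oas1a: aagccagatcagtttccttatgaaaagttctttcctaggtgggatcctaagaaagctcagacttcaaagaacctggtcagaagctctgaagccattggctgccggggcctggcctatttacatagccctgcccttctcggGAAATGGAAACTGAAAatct
Rsad2: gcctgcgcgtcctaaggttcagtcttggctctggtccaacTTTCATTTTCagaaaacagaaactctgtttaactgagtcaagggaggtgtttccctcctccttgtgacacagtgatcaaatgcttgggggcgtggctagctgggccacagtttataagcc
Bst2: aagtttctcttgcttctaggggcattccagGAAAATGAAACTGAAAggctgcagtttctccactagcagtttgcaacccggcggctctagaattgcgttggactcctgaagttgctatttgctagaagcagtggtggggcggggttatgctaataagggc
Ifitm3: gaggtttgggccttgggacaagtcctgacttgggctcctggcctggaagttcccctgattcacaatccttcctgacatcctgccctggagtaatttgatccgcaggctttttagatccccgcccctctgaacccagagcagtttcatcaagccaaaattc

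The stretches lie at chr4:156200819-156200978, minus strand (Isg15), chr19:34640729-34640888, plus strand (Ifit1), chr19:34583369-34583528, plus strand (Ifit3), chr5:120907526-120907685, minus strand (Oas1a), chr12:26456453-26456612, minus strand (Rsad2), chr8:71537473-71537632, minus strand (Bst2) and chr7:141010745-141010904, minus strand (Ifitm3). In Isg15, 3 overlapping matches form 1 run, and in Oas1a and Bst2 2 matches do. In Ifit1 and Ifit3, 2 separate matches lie on the opposite strand. RefSeq promoters were found for 30 of the 40 genes, and in the 250 bases before the start, 12 of 30 (40%) held the ISRE core, against 936 of 27025 genes with a promoter in the table (3.46%). The genes with a match, beside the 6 shown, were Oas3, Oas1g, Trim30a, Slfn5, Phf11b and Ifit3b. A match is a description of the sequence and was not tested for binding here.

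The 40 genes lie on 13 chromosomes, several of them in clusters of related copies. Ifit1, Ifit2, Ifit3 and Ifit3b share chromosome 19, the Oas genes chromosome 5, and Mx1 and Mx2 chromosome 16. Reads of related copies (Ifit3 and Ifit3b, Oas1a and Oas1g, Oasl1 and Oasl2, Ifi27 and Ifi27l2a) could be split between them by the counting, which is not stated, so values of single copies are uncertain. Parp9 and Dtx3l overlap by 682 bases on opposite strands. Mx2 is annotated as a polymorphic pseudogene in GENCODE M21.

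Before RT, all 40 genes were higher in MC-38 than in RM-9 tumors. Whether the models were handled and sequenced together is not stated, so tumor model and sequencing run cannot be told apart here. Each of the 40 passed the test and was higher in every MC-38 control mouse than in every RM-9 control mouse, where 64.7% of all 15358 genes tested were higher by the test and 50.9% did not overlap. The median log2 difference of the 40 genes was 3.21, from 0.98 for Ifitm3 to 5.36 for Rsad2, against 0.63 over all genes. The mean level was 2.98 ± 0.295 (SD, n = 4) in RM-9 and 6.20 ± 0.383 (SD, n = 4) in MC-38 control mice. Median-ratio scaling sets the typical gene equal between libraries, and it moved the median of all genes to 0.032. Under it, the calls over all genes were split into 5231 higher and 4842 lower in place of 9943 and 1641, and 39 of the 40 genes were higher, all but Ifitm3.

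Rsad2 encodes viperin, an enzyme that makes a nucleotide that stops viral RNA synthesis, and it stood furthest apart. It measured 5.03, 4.37, 3.05 and 4.44 TPM in the 4 RM-9 control mice and 109, 216, 285 and 197 TPM in the 4 MC-38 control mice. The lowest MC-38 mouse was thus far above the highest RM-9 mouse, and the log2 difference was 5.36 (SE 0.30, adjusted p = 1.13e-14). Ifi44 followed with 2.86 ± 0.754 (SD, n = 4) against 83.5 ± 28.4 TPM (SD, n = 4), a log2 difference of 4.60 (SE 0.28, adjusted p = 5.85e-14). Oasl1, an OAS-like protein without synthetase activity, had a mean of 5.50 TPM in RM-9 and 110 TPM in MC-38 control mice. Oas1g, one of several mouse copies of Oas1, had means of 4.63 and 78.0 TPM. Herc6, the mouse ligase for ISG15, had the lowest RM-9 level of the 40 genes at 1.24 ± 0.240 TPM (SD, n = 4) and measured 26.4 ± 7.15 TPM (SD, n = 4) in MC-38 tumors. Dtx3l, a ubiquitin ligase that pairs with PARP9, measured 2.09 against 41.6 TPM.

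The smallest differences were at Ifitm3, Trim25, Ifi27, Slfn2, Epsti1 and Ifi27l2a. Ifitm3, which blocks the entry of viruses at endosomal membranes, was the most abundant of the 40 genes in both models, at 783 ± 153 (SD, n = 4) and 1531 ± 205 TPM (SD, n = 4). Its log2 difference was 0.98 (SE 0.16, adjusted p = 3.67e-06), and 0.31 with median-ratio scaling, where it did not pass. Trim25, a ubiquitin ligase that activates the RNA sensor RIG-I, measured 13.2 against 40.9 TPM. Ifi27, a mitochondrial protein, measured 34.1 against 131 TPM, Slfn2, a Schlafen protein needed for T cell quiescence, 16.3 against 65.1 TPM, and Epsti1 7.85 against 34.1 TPM. Ifi27l2a, the mouse neighbour of Ifi27, measured 43.8 against 185 TPM.

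By role, the median log2 difference was 3.78 in the OAS family, 3.72 among the PARP genes and Dtx3l, 3.69 in the ISG15 system and 3.53 in the Mx and viperin group. It was 3.39 among the TRIM and nuclear body genes, 3.05 in the IFIT family, 2.81 among the membrane and secreted proteins, 2.42 for the 4 IFI genes and 2.38 in the group of Slfn2, Slfn5, Samd9l and Epsti1. Isg15 itself measured 36.8, 47.4, 22.4 and 45.7 TPM in RM-9 and 319.8, 475.5, 640.3 and 487.1 TPM in MC-38 control mice. The ISG15 modifier thus did not overlap between the models, and its log2 difference was 3.66 (SE 0.32, adjusted p = 9.38e-11). Bst2, or tetherin, which holds budding virions at the cell surface, measured 81.6 ± 25.7 (SD, n = 4) against 1114 ± 216 TPM (SD, n = 4). Mx1, of the Mx GTPase family, was low in both, at 1.91 ± 0.675 (SD, n = 4) and 22.0 ± 9.29 TPM (SD, n = 4).

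**Figure D1:**
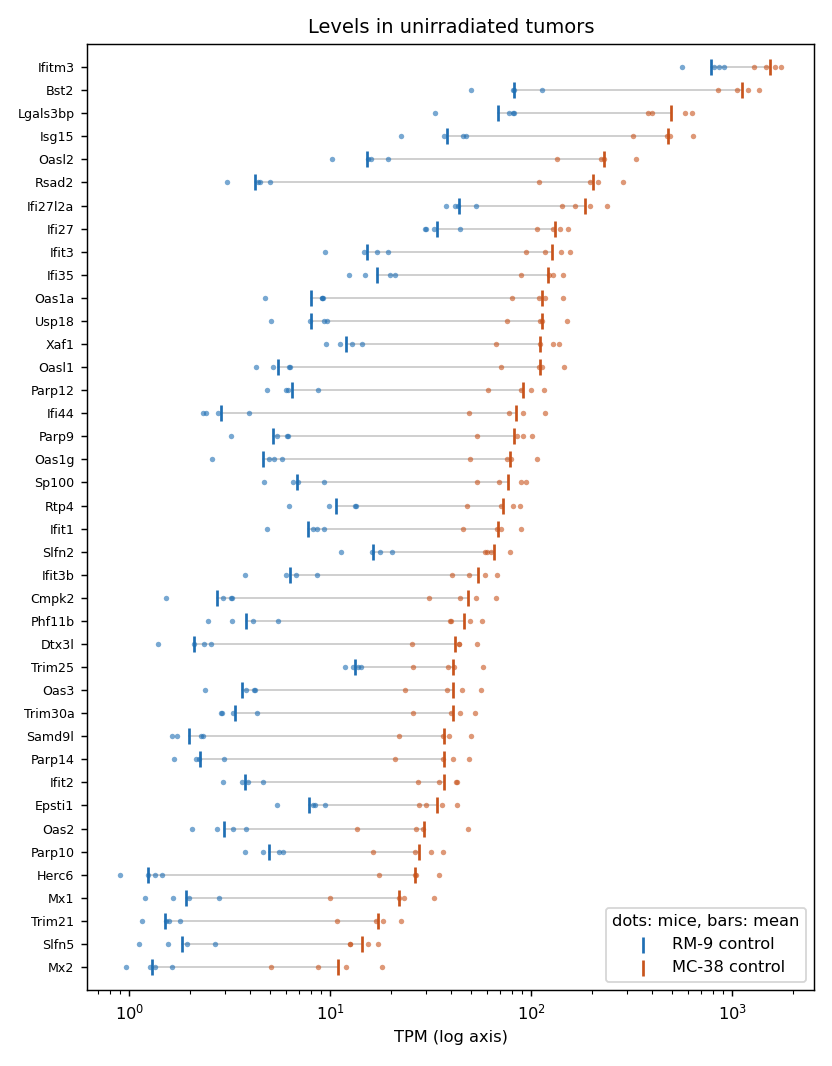
TPM of the 40 genes in control tumors, on a log axis, with 1 dot per mouse and a bar for the mean of each model, ordered by the MC-38 mean. The 4 MC-38 mice lie above the 4 RM-9 mice at all 40 genes, with the narrowest gap at Ifitm3 (means 783 and 1531 TPM) and the widest at Rsad2 (4.22 and 202 TPM).

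At 24 h after RT, the effector genes rose together in MC-38 tumors. Of the 40 genes, 38 rose and 0 fell, and 35 were higher in every RT mouse than in every control mouse. Over all 15698 genes tested, 13.2% rose, 0.548% fell and 14.8% lay above the controls in every RT mouse. The median log2 difference was 0.92, against 0.22 over all genes, and the mean level went from 6.20 ± 0.383 (SD, n = 4) to 7.13 ± 0.134 (SD, n = 4). With median-ratio scaling, which turned 2073 rises and 86 falls over all genes into 1232 and 1281, 32 of the 40 genes rose and the median was 0.66. Without control mouse 1, which had the lowest mean level of its group (5.67) and the highest muscle sum (10329.8 TPM), 32 genes rose and the median was 0.75; the part of muscle in these values was not tested.

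The Mx and viperin group moved most, with a median log2 difference of 1.44 and 4 of 4 genes risen. Mx1 measured 10.0, 23.2, 32.7 and 22.0 TPM in control mice and 84.6, 49.3, 74.9 and 58.5 TPM at 24 h. Every RT mouse was above every control, and the log2 difference was 1.67 (SE 0.26, adjusted p = 0.00116, exact permutation p = 0.0286), the largest of the 40. Rsad2 measured 632, 462, 463 and 489 TPM at 24 h, against at most 285 TPM in control mice, a log2 difference of 1.41 (SE 0.23, adjusted p = 0.00143). Cmpk2, a mitochondrial nucleotide kinase that lies next to Rsad2, rose with it by 1.19 on the log2 scale. Mx2 measured 5.05, 11.9, 18.0 and 8.64 TPM in control mice and 35.2, 22.1, 33.6 and 24.7 TPM at 24 h, a log2 difference of 1.47 (SE 0.27, adjusted p = 0.00332).

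All 4 genes of the IFIT family rose, with a median of 1.38. Ifit3 measured 93.6, 117, 156 and 141 TPM in control mice and 457, 264, 421 and 302 TPM at 24 h. The groups were far apart, with a log2 difference of 1.49 (SE 0.18, adjusted p = 0.000288, exact permutation p = 0.0286). Ifit3b rose from 54.0 ± 11.7 (SD, n = 4) to 160 ± 42.2 TPM (SD, n = 4), and Ifit2 from 36.7 ± 7.25 (SD, n = 4) to 87.8 ± 14.5 TPM (SD, n = 4). Ifit1 measured 45.7, 67.8, 88.5 and 70.8 TPM in control mice and 196, 111.5, 170.2 and 144 TPM at 24 h, a log2 difference of 1.19 (SE 0.19, adjusted p = 0.00117). RT mouse 2 was the lowest of its group at Ifit1, Ifit3 and Mx1, and still above all controls.

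In the OAS family, whose synthetases make the oligoadenylate that switches on RNase L, 6 of 6 genes rose, with a median of 1.00. Oas2 measured 13.6, 28.8, 48.5 and 26.7 TPM in control mice and 59.4, 73.0, 63.7 and 64.2 TPM at 24 h, a log2 difference of 1.26 (SE 0.26, adjusted p = 0.00648). Its spread lay mostly among the controls, between mouse 1 and mouse 3. Oas1a measured 80.1, 109, 144 and 117 TPM in control mice and 247, 171, 237 and 182 TPM at 24 h, a log2 difference of 0.90 (SE 0.17, adjusted p = 0.00332). Oasl1 rose from 110 to 251 TPM in the mean, while Oasl2, its neighbour with synthetase activity, rose by 0.73 on the log2 scale (adjusted p = 0.0241), the least of the family.

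The ISG15 system rose at 4 of 4 genes, with a median of 0.98. Isg15 went from the control values above to 990.1, 710.2, 1086 and 823.9 TPM, a log2 difference of 0.93 (SE 0.17, adjusted p = 0.00324). Usp18, the protease that takes ISG15 off its targets and also blocks the interferon receptor, measured 76.0, 110.4, 150.5 and 113 TPM in control mice and 283, 179, 246 and 202 TPM at 24 h. It thus rose by 1.03 on the log2 scale (SE 0.18, adjusted p = 0.00222), and the groups of both genes did not overlap. Herc6 rose from 26.4 ± 7.15 (SD, n = 4) to 61.5 ± 6.83 TPM (SD, n = 4) and Trim25 from 40.9 ± 13.1 (SD, n = 4) to 61.9 ± 2.23 TPM (SD, n = 4).

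The remaining groups rose by less. The 5 TRIM and nuclear body genes all rose, with a median of 0.95, from 0.56 for Trim21, an antibody receptor inside cells, to 1.16 for Trim30a. Samd9l, an antiviral translation inhibitor, rose by 1.13 and the group it was placed in by a median of 0.89, all 4 genes passing. The 4 PARP genes, ADP-ribosyltransferases, and Dtx3l all rose, between 0.77 and 0.95. Among the membrane and secreted proteins, the median was 0.49, with Lgals3bp, a secreted galectin ligand, at 0.86, Rtp4, a receptor chaperone, at 0.52, Bst2 at 0.45 and Ifitm3 at 0.41. Bst2 measured 847, 1057, 1357 and 1193 TPM in control mice and 1256, 1456, 1893 and 1473 TPM at 24 h, so RT mouse 1 lay within the controls (adjusted p = 0.0429, exact permutation p = 0.0571).

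Ifi27 and Ifi27l2a were the 2 genes of the 40 that did not pass at 24 h. Ifi27 measured 131 ± 19.0 (SD, n = 4) in control mice and 129 ± 24.2 TPM (SD, n = 4) at 24 h (log2 difference −0.03, SE 0.14, adjusted p = 0.906). Ifi27l2a measured 195.5, 141.6, 164.3 and 239 TPM in control mice and 346, 213, 338 and 225 TPM at 24 h (log2 difference 0.59, SE 0.20, adjusted p = 0.0639), with RT mice 2 and 4 inside the control range. Ifi35, a leucine zipper protein, rose by 0.60 and Ifi44 by 0.82.

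**Figure D2:**
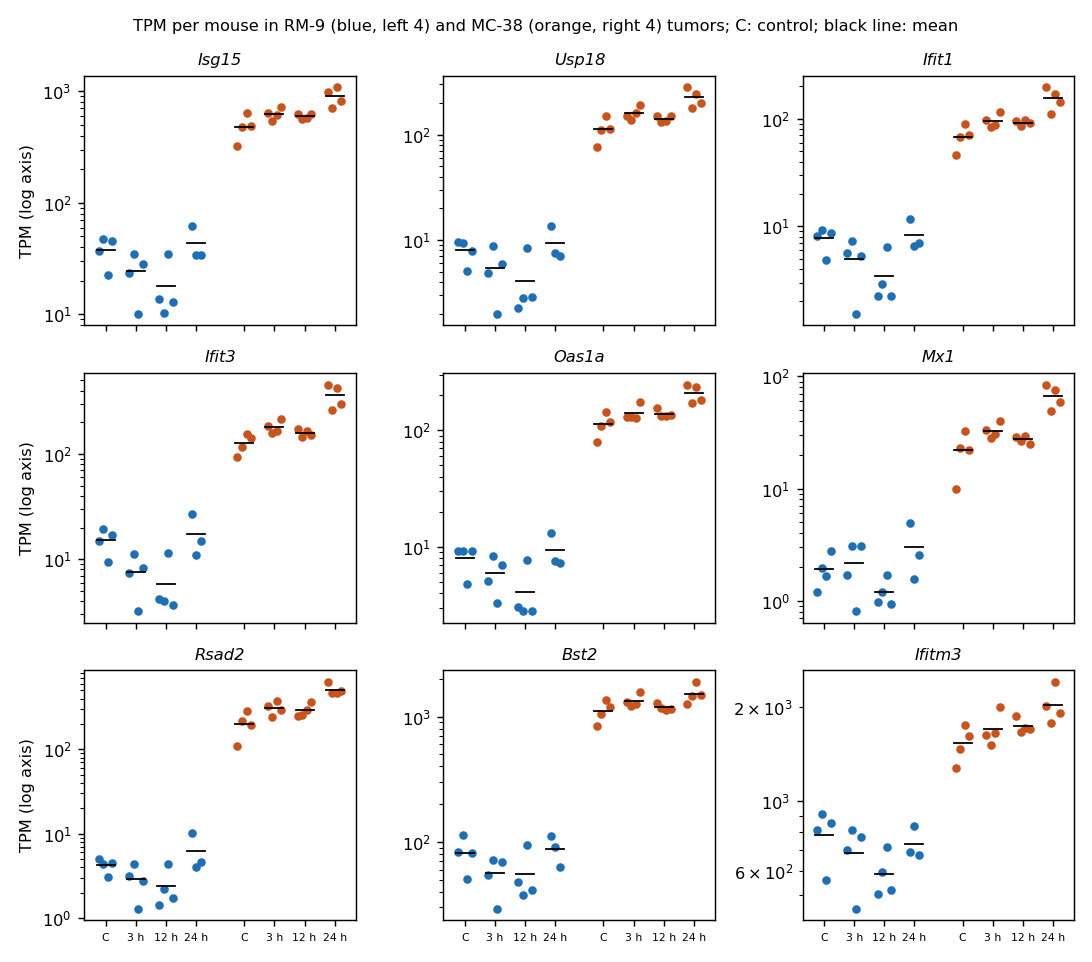
TPM of 9 genes, on a log axis of its own for each gene, with 1 dot per mouse and a black line for the mean of each group, RM-9 in blue and MC-38 in orange, and C for control. In MC-38, the RT 24 h mice stand above all controls except at Bst2, where 1256 TPM in RT mouse 1 lies below the highest control at 1357 TPM; in RM-9, 1 RT 12 h mouse stands above the other 3 in each panel.

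At 3 h and 12 h, the differences in MC-38 tumors were smaller in the median than at 24 h. At 3 h, limma called 0 of the 40 genes (0.0637% of all genes changed), with 26 at an unadjusted p under 0.05 and higher, against 18.1% of all genes. Dunnett's test on TPM called 4, Herc6, Parp10, Parp14 and Trim21. The median log2 difference was 0.43 against 0.19 over all genes, and 36 of 40 were above 0, against 79.5% of all genes. Mx2 was at 18.2, 17.6, 16.1 and 24.7 TPM at 3 h (log2 difference 0.90, SE 0.27, adjusted p = 0.144), so that 2 RT mice exceeded the highest control. Herc6 followed at 37.9 ± 6.50 TPM (SD, n = 4; adjusted p = 0.15) and Parp14, which ADP-ribosylates host and viral proteins, at 54.0 ± 7.19 TPM (SD, n = 4; adjusted p = 0.152). Ifit3 and Ifit3b were the only ones of the 40 with every RT mouse above every control, where 7.2% of all genes were. Without control mouse 3, the highest control mouse at 33 of the 40 genes, 8 genes passed, as did 2.71% of all genes.

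At 12 h, 13 of the 40 genes rose and 1 fell, where 28.5% of all genes rose and 2.59% fell. The share risen was thus close to that of all genes, and the median of 0.42 stood against 0.33. Most of the rises were in the PARP and OAS groups: Parp9, Parp10, Parp12, Parp14 and Dtx3l (5 of 5), and Oas2, Oas3, Oasl1 and Oasl2 (4 of 6). Herc6, Trim30a, Xaf1, which binds the apoptosis inhibitor XIAP, and Samd9l rose too, and 0 of the 4 IFIT genes and 0 of the Mx and viperin group did. Isg15 at 626.9, 560.4, 570.1 and 629.2 TPM (log2 difference 0.35, adjusted p = 0.113) and Ifit3 at 173, 144, 165 and 150.1 TPM (0.34, adjusted p = 0.14) did not pass. All 4 values of Isg15 lay between the highest control and the other 3 controls, and 2 of the 4 values of Ifit3 lay above all controls.

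Oas2 measured 57.2, 50.7, 45.4 and 61.0 TPM at 12 h, 3 of them above the highest control of 48.5 TPM, a log2 difference of 0.98 (SE 0.26, adjusted p = 0.0186, exact permutation p = 0.0571). Oas3, the largest OAS protein, measured 23.6, 38.0, 56.4 and 45.1 TPM in control mice and 73.5, 63.4, 64.8 and 77.8 TPM at 12 h (log2 difference 0.83, SE 0.20, adjusted p = 0.0141). Dtx3l measured 25.6, 43.4, 53.7 and 43.8 TPM in control mice and 62.1, 72.3, 64.2 and 68.7 TPM at 12 h (log2 difference 0.72, SE 0.17, adjusted p = 0.0138). The RT mice of these last genes were above every control, as was so for 10 of the 40 genes and 34.5% of all genes. Parp14 (0.65, adjusted p = 0.0237) and Samd9l (0.66, adjusted p = 0.0233) rose by similar amounts. Ifi27l2a fell, from 185 ± 42.2 (SD, n = 4) to 116 ± 28.4 TPM (SD, n = 4) with 114, 116, 153 and 83.3 TPM in the 4 mice (log2 difference −0.67, SE 0.20, adjusted p = 0.0268, exact permutation p = 0.0571).

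These calls moved with the scaling and with single mice. With median-ratio scaling, under which the split over all genes went from 4469 higher and 406 lower to 995 and 1544, 3 of the 40 genes rose (Oas2, Oas3, Dtx3l) and 3 fell (Ifi27, Ifi27l2a, Slfn2), with a median of 0.071. The number called, 14 in all where 31.1% of all genes changed, moved with the share of all genes called. It was 28 without control mouse 3 (46.4% of all genes), 5 without control mouse 1 (11.7%), 8 without control mouse 4 (15.2%), 9 without RT mouse 1 (21.8%) or 3 (17.4%), 3 without RT mouse 2 (9.19%) and 2 without RT mouse 4 (10.1%).

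From 12 h to 24 h, 30 of the 40 genes were higher in every 24 h mouse than in every 12 h mouse, where 4.95% of all genes were. Both times stand on the same controls, so only the levels are set side by side. Ifit2, for example, measured 37.0, 33.0, 43.7 and 36.7 TPM at 12 h and 109, 76.8, 79.9 and 85.8 TPM at 24 h, and Mx1 28.9, 26.8, 29.3 and 24.9 TPM at 12 h against 49.3 TPM or more at 24 h. The SD of the mean level was 0.0454 at 12 h, against 0.175 at 3 h, 0.134 at 24 h and 0.383 in control mice. With median-ratio scaling, it was 0.0896 at 12 h, 0.0878 at 3 h, 0.231 at 24 h and 0.155 in control mice, so that 12 h was not the tightest group.

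**Figure D3:**
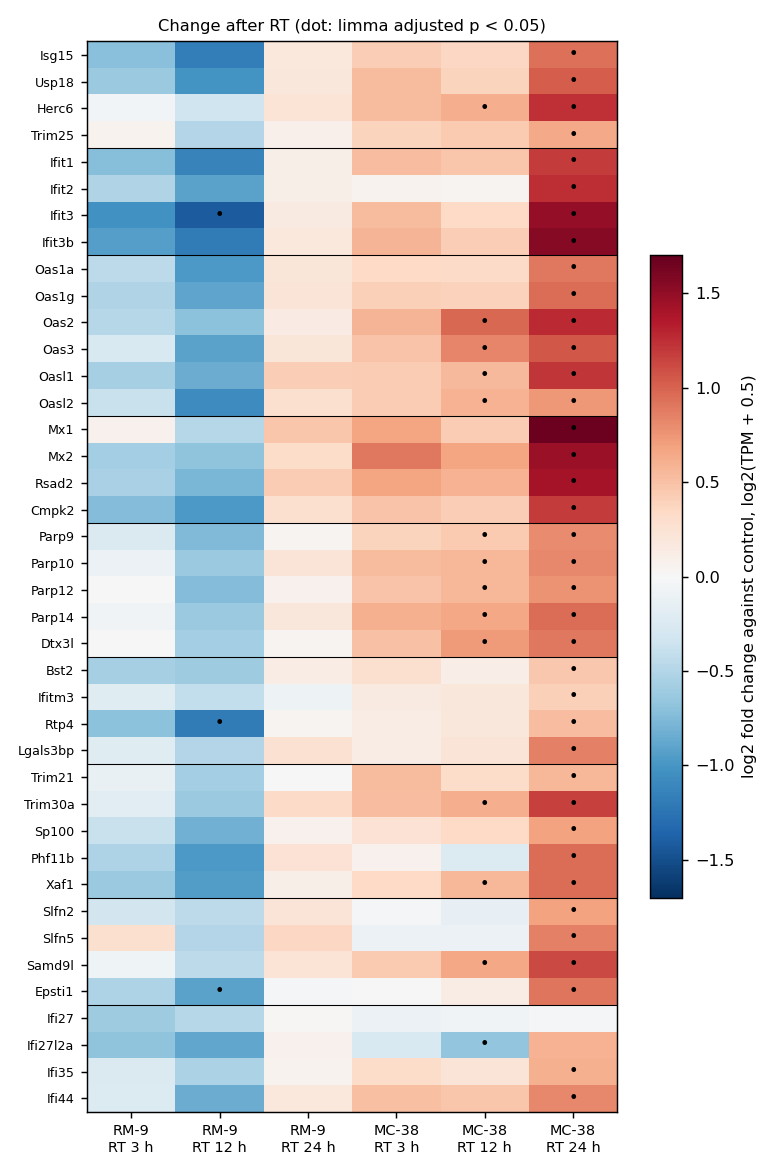
log2 difference from control, on the log2(TPM + 0.5) scale, of the 40 genes in each RT group, grouped by role, with red for higher, blue for lower and a dot where the adjusted p was under 0.05. The MC-38 RT 24 h column holds 38 dots, all at higher values, MC-38 RT 12 h 14 dots and RM-9 RT 12 h 3 dots.

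In RM-9 tumors, none of the 40 genes rose by the test at 3 h, 12 h or 24 h. At 12 h, 3 of the 40 genes fell and 0 rose, where 8.3% of all 14013 genes fell and 0.0714% rose, so the share called was close to that of all genes. All 40 log2 differences were below 0, as were 84.6% over all genes, and 31 had an unadjusted p under 0.05, against 30.5% over all genes. The median was −0.76, against −0.19 over all genes, and the mean level went from 2.98 ± 0.295 (SD, n = 4) to 2.21 ± 0.462 (SD, n = 4).

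Epsti1 measured 8.37, 8.17, 5.43 and 9.43 TPM in control mice and 4.40, 3.14, 5.07 and 3.17 TPM at 12 h. It was the only one of the 40 with every RT mouse below every control, where 19.4% of all genes were, and it fell by 0.91 on the log2 scale (SE 0.20, adjusted p = 0.0276, exact permutation p = 0.0286). Ifit3 measured 14.8, 19.4, 9.39 and 17.0 TPM in control mice and 4.20, 3.99, 11.4 and 3.64 TPM at 12 h (log2 difference −1.41, SE 0.39, adjusted p = 0.0418, exact permutation p = 0.0571). Rtp4 measured 9.84, 13.3, 6.22 and 13.4 TPM in control mice and 3.25, 3.90, 7.66 and 3.22 TPM at 12 h (log2 difference −1.18, SE 0.34, adjusted p = 0.0471, exact permutation p = 0.0571). In both, RT mouse 3 lay inside the control range and the other 3 RT mice below it. Dunnett's test on TPM called Rtp4 and Epsti1.

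Others with differences as large did not pass. Isg15 measured 13.6, 10.3, 34.5 and 13.03 TPM at 12 h (log2 difference −1.18, adjusted p = 0.07), Ifit1 2.26, 2.89, 6.43 and 2.26 TPM (−1.13, adjusted p = 0.0705) and Oas1a 3.04, 2.79, 7.65 and 2.79 TPM (−0.98, adjusted p = 0.068). Again RT mouse 3 was high, as it was at all 40 genes. By role, the median was lowest in the IFIT family (−1.16) and the OAS family (−0.90) and closest to 0 in the group of Slfn2, Slfn5, Samd9l and Epsti1 (−0.47). Mouse 3 also held the highest muscle sum of its group, 891 TPM against 3.05 to 79.8 TPM; its part in the levels was not tested.

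The number that fell at 12 h was 19 without RT mouse 3 (7.22% of all genes changed in that fit), 13 without control mouse 3 (11.2%) and 1 without RT mouse 2 (4.31%). It was 0 without control mouse 1, 2 or 4 or RT mouse 1 or 4, where 0% of all genes changed as well. It was also 0 with median-ratio scaling (6 genes lower and 13 higher over all genes, in place of 1163 and 10) and with TPM rescaled without mitochondrial genes (67 lower and 10 higher), while the median of the 40 stayed at −0.58 and −0.71.

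At 3 h, limma called 0 of the 40 genes in RM-9, where 0.228% of all genes changed, and Dunnett's test called 0 too. At an unadjusted p under 0.05, 5 genes were lower (Ifit3, Ifit3b, Cmpk2, Epsti1 and Ifi27), against 6.1% of all genes, and 0 were higher, against 15.7%. The log2 difference was below 0 for 37 of the 40, against 41.4% of all genes, with a median of −0.41 against 0.056. Ifit3 measured 7.38, 11.3, 3.19 and 8.31 TPM at 3 h (log2 difference −1.03, SE 0.39, adjusted p = 0.162), Ifit3b had a log2 difference of −0.94 (adjusted p = 0.168) and Epsti1 one of −0.53 (adjusted p = 0.164). RT mouse 3 was lowest at 39 of the 40 genes, and without it the median was −0.15, 15 genes were above 0 and 0 had an unadjusted p under 0.05. Without control mouse 3, 13 genes were lower at an unadjusted p under 0.05.

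At 24 h, limma called 0 of the 40 genes and 0 of all genes (0%), and Dunnett's test called 0. At an unadjusted p under 0.05 there were also 0 of the 40, against 1.98% of all genes higher and 2.88% lower. The mean level was 3.16 ± 0.380 (SD, n = 3), and the median log2 difference was 0.18, with 37 of 40 above 0 against 38% of all genes. The genes furthest from 0 were Mx1 (0.47), Rsad2 (0.43) and Oasl1 (0.42), each with an adjusted p of 0.999. Isg15 measured 61.8, 34.15 and 34.2 TPM and Ifit3 26.8, 10.99 and 14.9 TPM at 24 h, with mouse 1 above the control range and the others within it. Mouse 1 was the highest of its group at 39 of the 40 genes and in muscle sum (2191 TPM against 212 and 583 TPM), whose part was not tested. Without it, the median was −0.059 and 11 genes were above 0, and without control mouse 3 the median was −0.00017. From 12 h to 24 h, 12 of the 40 genes were higher in every 24 h mouse than in every 12 h mouse, where 12.7% of all genes were.

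**Figure D4:**
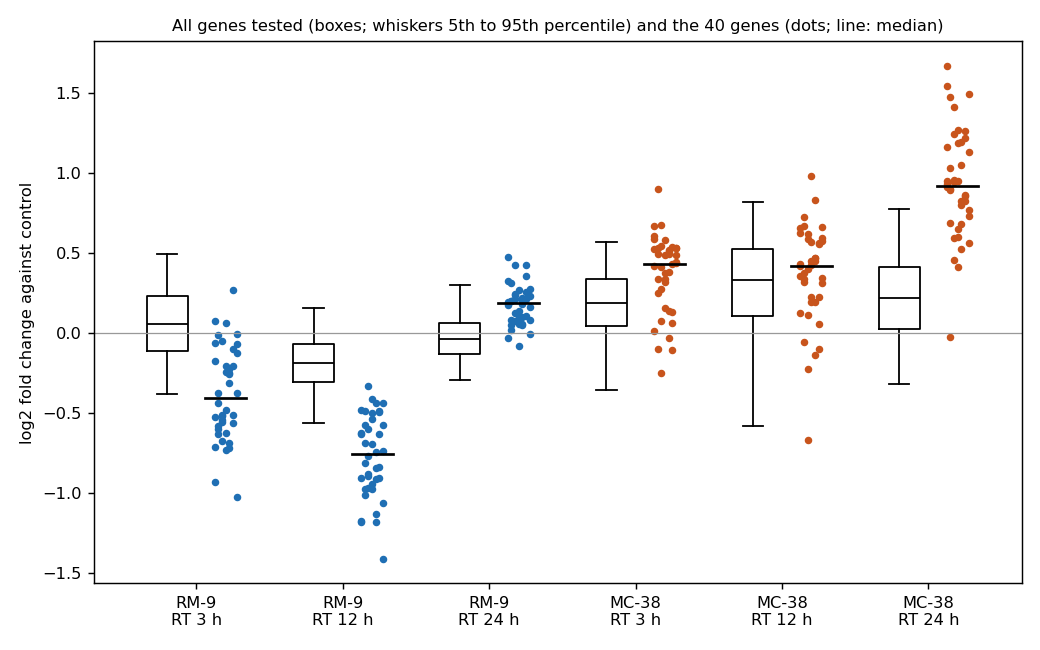
log2 difference from control in each RT group, over all genes tested (boxes: middle line the median, box the quartiles, whiskers the 5th to 95th percentile) and for the 40 genes (dots, with a line at their median), RM-9 in blue and MC-38 in orange. The dots sit lowest against the box in RM-9 RT 12 h (medians −0.76 and −0.19) and highest in MC-38 RT 24 h (0.92 and 0.22), and about level with it in MC-38 RT 12 h (0.42 and 0.33).

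With the groups of a model pooled, the genes varied between mice of one group more in RM-9 than in MC-38 tumors. Among control mice alone the order was the other way, with a median SD of 0.330 in RM-9 and 0.405 in MC-38. Over all genes, these medians were 0.170 and 0.311. With median-ratio scaling, the SD of the mean level in control mice was 0.296 in RM-9 and 0.155 in MC-38. In RM-9, the pooled within-group SD of log2(TPM + 0.5) had a median of 0.472 over the 40 genes, against 0.191 over all genes, and all 40 lay above that median. In MC-38, it was 0.272 against 0.247, and 27 of the 40 lay above. The 40 genes were at lower levels in RM-9, and their SDs were not set against genes of like level. In some groups of both models 1 mouse was lowest or highest at most of the genes. In RM-9, control mouse 3 was lowest at 36 genes, RT 3 h mouse 3 lowest at 39, RT 12 h mouse 3 highest at 40 and RT 24 h mouse 1 highest at 39. In MC-38, control mouse 1 was lowest at 37 and control mouse 3 highest at 33, and at RT 3 h mouse 2 was lowest at 37. At MC-38 RT 12 h, in contrast, each mouse was highest at 5 to 15 genes. With median-ratio scaling, the mean level of MC-38 control mouse 1 was 5.80 and that of mouse 2 was 5.82, in place of 5.67 and 6.21. The largest SDs in RM-9 were those of Ifi27l2a (0.653), Isg15 (0.649) and Usp18 (0.649), and the smallest those of Trim25 (0.264) and Ifitm3 (0.292). In MC-38, Mx2 (0.425), Oas2 (0.411) and Mx1 (0.408) varied most and Ifitm3 (0.164) and Epsti1 (0.171) least. At MC-38 RT 12 h, the median SD of the 40 genes was 0.0998, below the 0.135 over all genes.

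**Figure D5:**
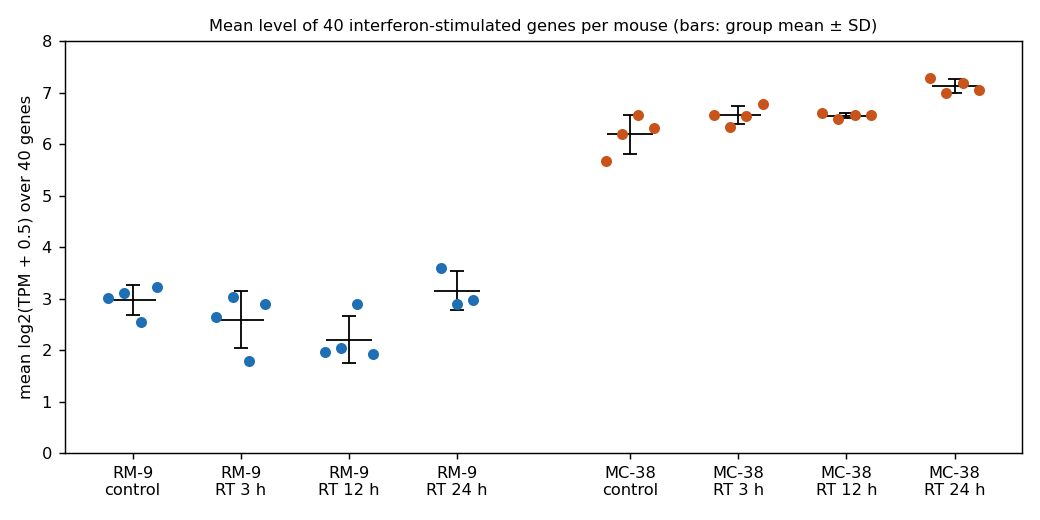
Mean of log2(TPM + 0.5) over the 40 genes in each mouse (dots), with the group mean and SD (bars), on a linear axis from 0. MC-38 RT 24 h mice lie between 6.99 and 7.29, above all MC-38 controls (5.67 to 6.58), and RM-9 RT 12 h mice lie at 1.92 to 2.04 except mouse 3 at 2.90.

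The change after RT was compared between the models in 1 fit of all 31 libraries. At 12 h, 32 of the 40 genes changed more in the direction of a rise in MC-38 than in RM-9, where 44.9% of all genes did, and the median difference of the 2 changes was 1.27 against 0.50 over all genes. Dtx3l differed by 1.30 (SE 0.29, adjusted p = 0.00317), Parp10 by 1.20 (SE 0.29, adjusted p = 0.00436) and Epsti1 by 1.03 (SE 0.24, adjusted p = 0.00363) on the log2 scale. The largest difference of the IFIT family was at Ifit3, 1.75 (adjusted p = 0.00554), and Isg15 differed by 1.53 (adjusted p = 0.0112). All 4 IFIT, 6 OAS, 4 ISG15 system and 5 PARP and Dtx3l genes passed. The 8 that did not were Bst2, Lgals3bp, Phf11b, Mx1, Slfn2, Slfn5, Ifi27 and Ifi27l2a. With median-ratio scaling, which left 235 higher and 201 lower over all genes in place of 6903 and 72, 0 of the 40 passed, and 20 did with TPM rescaled without mitochondrial genes.

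At 3 h, limma called 0 of the 40 genes and 0 of all genes (0%), with 19 of the 40 at an unadjusted p under 0.05 and higher, against 8.66% of all genes. The median difference was 0.66. Ifit3 (1.56), Ifit3b (1.52) and Mx2 (1.48) had the smallest p, with an adjusted p of 0.343 each. At 24 h, 0 of the 40 passed, where 1.81% of all genes did, with 19 at an unadjusted p under 0.05, against 21.4% of all genes, and a median of 0.75. Epsti1 (0.94, adjusted p = 0.0501), Ifit2 (1.16, adjusted p = 0.069) and Herc6 (1.00, adjusted p = 0.0834) came closest, and 8 genes passed without MC-38 control mouse 3, where 9.42% of all genes did. The rise of the 40 genes at 24 h in MC-38 was therefore not shown to differ from the change in RM-9, although it passed within MC-38 alone.

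Genes that make, receive or pass on the interferon signal were described from a list of 41. In MC-38 tumors at 24 h, 24 of the 36 tested rose and 0 fell, where 13.2% of all genes rose and 0.548% fell. Those that rose were 8 of 9 nucleic acid sensors and adaptors, 7 of 10 JAK-STAT and IRF genes, 5 of 6 ISG15 partners and other effectors, 2 of 5 receptors (Ifngr2, Il10rb), 1 of 4 inhibitors (Socs3) and 1 of 2 interferons (Ifnb1). Stat2 rose by 0.83 on the log2 scale (adjusted p = 0.0185), while Irf9, its partner in ISGF3, measured 37.2 and 41.3 TPM (0.17, adjusted p = 0.455). Irf7, which drives interferon genes after the first signal, rose from 190 ± 26.9 (SD, n = 4) to 373 ± 77.4 TPM (SD, n = 4; adjusted p = 0.00114). Ifng, the type II interferon, measured 1.87 ± 0.667 (SD, n = 4) and 1.95 ± 0.209 TPM (SD, n = 4; adjusted p = 0.866). Ifnb1, encoding interferon beta, ranged from 0.443 to 1.01 TPM in control mice and from 2.40 to 7.39 TPM at 24 h, and had a mean of at most 0.0409 TPM in any RM-9 group.

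At 12 h in MC-38, 12 of the 36 rose, a share near the 28.5% of all genes that did. Ptpn6, a phosphatase that damps signalling, fell (−0.80, adjusted p = 0.0196), with Irf7 (−0.11, adjusted p = 0.567) not passing, and at 3 h limma called 0. In RM-9, 33 of the 41 were tested and 0 rose at any time, and at 12 h 3 fell, a share near the 8.3% of all genes that did: Ifngr1, a receptor chain for interferon gamma (−0.37, adjusted p = 0.0475), Tmem173, encoding STING (−0.42, adjusted p = 0.0329), and Ptpn6 (−0.60, adjusted p = 0.0498). Before RT, 32 of the 36 genes tested were higher in MC-38, where 64.7% of all genes were, and 1, Tmem173, was lower. The change after RT was higher in MC-38 than in RM-9 for 25 of the 36 at 12 h, against 44.9% of all genes. At 24 h this was so for 4, against 1.81% of all genes, and at 3 h for 0. These counts are from the deposited TPM without other scaling.

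Most markers of immune cells did not pass the test in MC-38 at 24 h, where 13.2% of all genes rose and 0.548% fell. By limma, 0 of 8 macrophage, 0 of 2 plasmacytoid dendritic cell and 0 of 5 neutrophil genes passed. The neutrophil genes had a median log2 difference of 0.65. Their sum ranged from 11.3 to 25.1 TPM in control mice and from 20.4 to 36.8 TPM at 24 h. Of 6 NK cell genes, Gzmb, encoding granzyme B, rose, and of 6 T cell genes, Cd3e, Cd3g and Cd2 fell. The summed T cell markers ranged from 16.3 to 24.9 TPM in control mice and from 8.02 to 15.2 TPM at 24 h, and the NK cell markers from 48.9 to 99.9 TPM and from 87.3 to 173 TPM. The median log2 difference was −0.66 over the 6 T cell genes and −0.020 over the 6 NK cell genes. Of 5 endothelial genes, Cdh5 and Kdr rose, and the endothelial sum was 41.1 to 55.9 TPM in control mice and 56.7 to 75.5 TPM at 24 h, with no overlap. The macrophage markers summed to 899 to 1419 TPM in control mice, to 325 to 774 TPM at 12 h and to 736 to 926 TPM at 24 h. At 12 h, 6 of 8 macrophage (median −1.15) and 4 of 6 T cell genes (median −0.76) fell, where 2.59% of all genes did. Of 6 NK cell and 5 neutrophil genes, 0 passed at 12 h. In RM-9 control mice, the T cell sum was 5.03 to 9.45 TPM, the NK cell sum 13.7 to 19.8 TPM and the macrophage sum 379 to 600.4 TPM. At 3 h these sums were 1.59 to 4.41, 4.19 to 10.2 and 268 to 405 TPM, and at 12 h 1.56 to 4.81, 7.39 to 11.3 and 191 to 377 TPM. Of these, only the macrophage sum at 3 h overlapped the controls. The epithelial sum also lay below the controls at 12 h, at 669 to 1137 against 1155 to 1395 TPM. Of all single genes, 19.4% did so at 12 h. At 24 h, the T cell sum (3.14 to 4.47 TPM) was still below the controls. The NK cell sum (9.85 to 21.1 TPM) and the macrophage sum (457 to 576 TPM) overlapped them. By limma, 4 of 8 macrophage and 3 of 4 T cell genes fell at RM-9 RT 12 h, where 8.3% of all genes did. Of 2 NK cell genes, 0 passed there. The part of these cell types in the levels of the 40 genes was not tested.

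Genes with and without an ISRE core in front of their start are set side by side without a test. In MC-38 at 24 h, the median log2 difference was 1.00 for the 12 with the core and 0.84 for the 18 without, and the ranges overlapped widely, from 0.45 to 1.54 and from 0.41 to 1.26. Before RT, the medians of the difference between the models were 3.43 and 3.25. RM-9 tumors showed wider gaps: their RT 12 h medians were −0.94 with the core, −0.66 without it. Their RT 3 h medians were −0.53 with it, −0.24 without. The 3 h change differed between the models by a median of 0.88 with the core, 0.57 without. For MC-38 RT 12 h, genes with the core had the smaller median, 0.37 against 0.44. All these ranges overlapped too. Of the genes shown, Rsad2 has 1 match and the largest difference between the models, and Bst2 has 2 matches and rose by 0.45 at 24 h, close to Ifitm3, which has none.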

How the data were processed

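Messenger RNA of 31 tumors was sequenced by the authors with a stranded kit and single-end reads of 75 bases. The submitters' processing notes name bcl2fastq 2.17 and build GRCm39, whereas the coordinates of the tables match GENCODE M21 (GRCm38), with 45137 shared identifiers, 100% on the same chromosome and 91.1% with the same start or end. Aligner and counting program are not given in the sources used here. Per library, TPM, FPKM and mean coverage of each gene were deposited by the authors. The analysis used TPM, and depth was computed from the deposited coverage and FPKM. Without counts, no counting error could be given. Repeated entries of a gene were summed.

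Genes at a mean TPM of 0.5 or more were tested by limma 3.58.1 (R 4.3.3; eBayes with trend) on log2(TPM + 0.5), with the 4 groups of a model in 1 fit, or all 8 groups for the comparisons between models, and Benjamini-Hochberg adjustment. Genes are named by a rule: up to 6 called genes with the largest differences per RT comparison, or the 3 smallest p where fewer than 3 passed, 6 in each direction before RT, the 3 smallest p between models, the extremes of spread, and 9 fixed genes. Others, named to complete a group or a count, were chosen after their values were seen. The 40 genes and all lists were chosen with earlier results of these data known. P-values measure the spread between mice. The labels give no batch, so tumor model and sequencing run cannot be told apart in comparisons between the models. Mouse numbers mark different mice and did not pair the samples. On simulated data, 89% of genes changed by 1 on the log2 scale were recovered at RM-9 RT 12 h (13923 genes). For MC-38 RT 12 h it was 81% (15581 genes). These rates were not computed for the 40 genes. In RM-9, their median pooled SD was 0.472, against 0.191 over all genes, so the 89% cannot be carried over to them. Alternatives were other pseudocounts, filters and scalings, the replicate number as a block, no trend, the 2 compared groups only, Dunnett's test, and each mouse left out.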

Additional observations from a re-analysis of the deposited data

Results flagged for a closer look

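In groups of 4 mice, sets of values were checked by Dixon's criterion for 1 mouse far from the other 3. Chance gives this in about 1 of 20 independent sets. The sets here share mice, and the mean level holds the single genes, so their number cannot be set against that rate. Of 70 sets, 10 held such a mouse. Of these, 6 were RM-9 RT 12 h mouse 3, highest in mean level (2.90 against 1.92 to 2.04), Isg15 (34.5 TPM against 10.3 to 13.6), Ifit1 (6.43 TPM against 2.26 to 2.89), Ifit3 (11.4 TPM against 3.64 to 4.20), Oas1a (7.65 TPM against 2.79 to 3.04) and Usp18 (8.42 TPM against 2.27 to 2.90). That mouse also had a muscle marker sum of 891 TPM against 3.05 to 79.8 TPM, whose part was not tested. Oas1a stood apart in 3 more groups: RM-9 control mouse 3 was low at 4.76 TPM (others 9.14 to 9.21), MC-38 RT 3 h mouse 4 high at 175.7 TPM (128.3 to 129.7) and MC-38 RT 12 h mouse 1 high at 153.9 TPM (132.3 to 134.3). Rsad2 was high in MC-38 RT 24 h mouse 1, at 632 TPM (462 to 489).

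The change at 12 h differed between the models for 32 of the 40 genes by limma's interaction term, where 44.9% of all 15358 genes had a higher change in MC-38 by it. It passed for 0 of the 40 with median-ratio scaling and for 20 without mitochondrial genes. Named genes among the 32 were Dtx3l (1.30), Epsti1 (1.03) and Parp10 (1.20), all on the log2 scale and all with the higher change in MC-38.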

How the results depend on the processing

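The difference before RT and the rise at 24 h in MC-38 kept their direction under all alternatives run, though with only the 2 compared groups in the fit 17 of the 40 genes passed at 24 h. Of the values of single genes under alternatives, 2106 kept direction and side of the threshold, 94 lost and 34 gained the call, and 21 changed sign. At RM-9 RT 12 h, 1 gene was called without a filter, without trend or with only the 2 groups, and 0 with median-ratio scaling or without mitochondrial genes. At MC-38 RT 12 h, the number was 8 without a filter, 6 with median-ratio scaling and 0 with only the 2 groups, and at MC-38 RT 3 h Dunnett's test called 4. The difference of changes passed for 0 genes at 12 h with median-ratio scaling and 20 without mitochondrial genes, and at 24 h for 3 with a pseudocount of 1 and 1 with a mean TPM of at least 5. Leaving out 1 mouse at a time gave 0 to 19 genes at RM-9 RT 12 h, 0 to 8 at MC-38 RT 3 h, 2 to 28 at MC-38 RT 12 h, 31 to 38 at MC-38 RT 24 h and 0 to 8 for the difference of changes at 24 h. The mean level differed by 0.019 at MC-38 RT 12 h with median-ratio scaling (0.37 as reported, and 0.19 to 0.49 with 1 mouse left out), and between the models by 2.58 with it and 2.85 without mitochondrial genes.

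Differences that changed sign were small. With median-ratio scaling, they were Ifitm3 at MC-38 RT 3 h (−0.064) and, at MC-38 RT 12 h, Ifit3 (−0.0091), Oas1a (−0.029), Bst2 (−0.24) and Ifitm3 (−0.16), and Bst2 was −0.030 there without mitochondrial genes. With 1 mouse left out, the range was −0.11 to 0.38 for Mx1 at RM-9 RT 3 h and −0.016 to 0.21 for Bst2 at MC-38 RT 12 h. At RM-9 RT 24 h it was −0.096 to 0.33 for Isg15, −0.15 to 0.24 for Ifit1, −0.19 to 0.44 for Ifit3, −0.060 to 0.34 for Oas1a, −0.080 to 0.36 for Usp18 and −0.090 to 0.35 for Bst2. The cause of these shifts was not tested.

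With the replicate block, 1 gene was called at RM-9 RT 12 h and 1 in the difference of changes at 24 h. Of 27 correlations between same-numbered mice, 11 were above 0.1 (from −0.477 to 0.554), and 9 mice correlated best with their own number, so the numbers were not used as pairs.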
